A study of Oryza sativa with 8 samples.

Results

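The genes described are 10 aquaporins of rice (Oryza sativa), 6 of the plasma membrane intrinsic protein (PIP) class and 4 of the tonoplast intrinsic protein (TIP) class, chosen by gene identifier and looked up in 2 deposited tables of changed genes. The tables hold 5827 genes between them, 7 of which are members. Aquaporins are membrane channels that pass water, and some of them small neutral solutes, along a gradient. PIP proteins sit mainly in the plasma membrane and set how readily water enters or leaves a cell, while TIP proteins sit in the membrane of the vacuole and set its exchange with the cytosol. In leaves they take part in water movement from the veins to the mesophyll and in the adjustment of cell volume when roots meet salt. PIP1 proteins of several plants, maize among them, reach the plasma membrane in tetramers with PIP2 proteins, so the balance of PIP1 and PIP2 is often followed as well as the total. Genes are named as RefSeq spells them, PIP1-2 for the gene that is also written PIP1;2.

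The study sequenced RNA of leaf blades and leaf sheaths from hydroponic rice, either exposed to 100 mM NaCl for 24 h or kept as controls. The 8 samples fell into 4 groups of 2, blade salt, blade control, sheath salt and sheath control. The series text concerns a Japanese landrace, SZK, described there as tolerating sodium in its tissues, but the sample labels name no variety, age or developmental stage. The labels do not state whether both samples in a group were grown as different plants, and the authors' p-values cover no more than the spread between such samples, which may then be technical. The tables hold group means and no value per sample, so no SD can be given. Leaf tissue is a mixture of cells, and fewer cells of a type and less RNA per cell cannot be told apart.

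The blade table held 4623 genes with q up to 0.0499 and 1998 genes with adjusted p up to 0.004 stood in that of the sheaths. The listed blade genes held a mean of 9995664 reads in salt libraries and 10745825 in control libraries, while the depth of sheath libraries cannot be read from their table. RBCS, a Rubisco small subunit gene of green leaf tissue, was listed in blades with a mean of 28778 TPM in salt and 53569 TPM in control blades, and OSH1, a shoot meristem gene, was in neither table.

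Of the 10 members, 7 were listed in blades, namely PIP1-2, PIP1-3, PIP2-1, PIP2-2, PIP2-7, TIP1-2 and TIP2-2, and 2 of these, PIP1-3 and TIP1-2, were also listed in sheaths. The other 3 members, PIP1-1, TIP1-1 and TIP2-1, were in neither table and were not analysed here. In salt-treated blades the authors' deposited table had 4 members higher and 3 lower, where 51.7% of all listed genes were higher and 48.3% lower. Both listed members were higher in sheaths, where 45.6% of all listed genes were higher. Since the tables hold only genes the authors had called, these counts leave out members that did not pass, and the share of all blade genes that was called is not known. For sheaths the number of genes tested can be worked back from the listed p-values, their ranks and the adjusted values, if the adjustment was that of Benjamini and Hochberg. It came to 31978, of which 6.25% were listed and 2.85% were listed as higher.

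The most abundant listed TIP and the most abundant listed PIP of blades moved in opposite directions with salt. TIP1-2 rose 1.2-fold, PIP2-7 fell to 0.77 of its control level and TIP2-2 to 0.494 of its control level in the authors' deposited table. Both listed PIP1 genes rose, and of the 3 PIP2 members 1 rose and 2 fell.

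TIP1-2 (Os01g0975900), a vacuolar channel gene on chromosome 1, was the most abundant listed aquaporin, with a mean of 2437 TPM in salt and 1779 TPM in control blades. TPM values correct for gene length and library total, and levels of different genes are compared on this scale only. The authors' deposited table lists its rise as 0.27 on the log2 scale, with q = 0.00098. It ranked 39 by TPM among the 4623 listed genes in salt blades and 55 in control blades. With a mean of 42265 reads in salt and 32122 in control blades, its log2 read ratio was 0.40. The 95% counting interval, shifted to lie around the listed log2 fold change, ran from 0.25 to 0.28. Counting intervals here are exact (Clopper-Pearson) for reads and rest on the reads of both libraries of a group. Those of fold changes and TPM ratios were computed for the read ratio. They were then shifted on the log2 scale to the listed fold change or TPM ratio, which is taken as given. All cover counting error only, not the spread between libraries.

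TIP2-2 (Os06g0336200), another vacuolar channel gene, had the largest listed change of any member in blades. It had a mean of 245 TPM in salt and 435 TPM in control blades, and the authors' deposited table lists -1.02 on the log2 scale, with q = 4.4e-42. Its counting interval ran from -1.06 to -0.98. Of all listed blade genes, 68.6% had a smaller absolute change. The TPM of TIP1-2 was 9.96 times that of TIP2-2 in salt blades (95% counting interval 9.74 to 10.2) and 4.09 times in control blades (4.02 to 4.16), so the vacuolar pair moved apart.

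**Figure D1:**
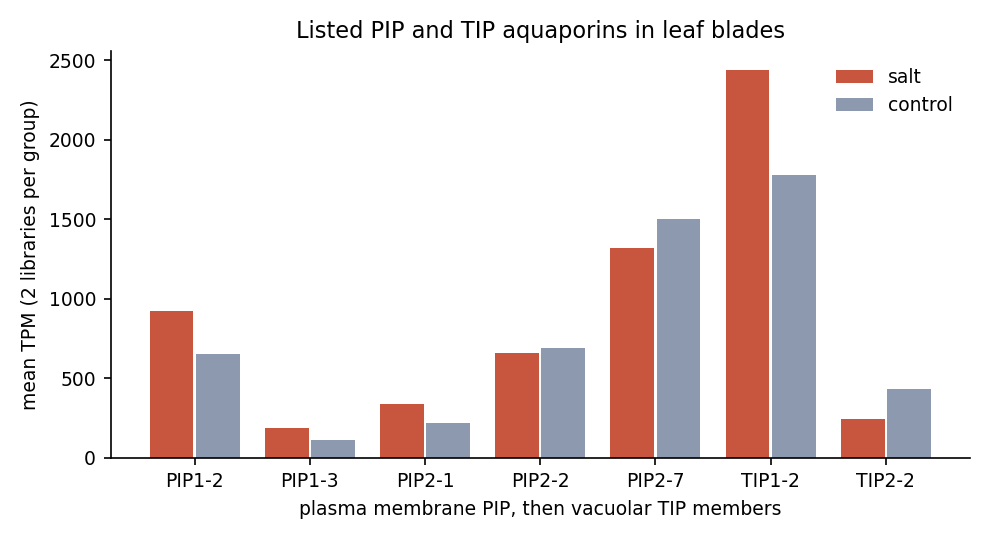
Mean TPM of the 7 listed PIP and TIP members in leaf blades, with salt in red and control in grey, each bar the authors' mean of 2 libraries and no error bar because no value per library was given. TIP1-2 is the tallest pair, at 2437 TPM with salt and 1779 TPM in control, and PIP2-2, PIP2-7 and TIP2-2 are the members with a lower bar in salt.

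PIP1-2 (Os04g0559700) and PIP1-3 (Os02g0823100), the 2 listed plasma membrane genes of the PIP1 group, were both higher with salt. PIP1-2 had a mean of 924 TPM in salt and 650 TPM in control blades, which the authors' deposited table lists as a log2 change of 0.32 (q = 4.9e-05). PIP1-3 had a mean of 188 TPM in salt and 114 TPM in control blades, and at 0.53 on the log2 scale (q = 2.7e-08) it had the highest value of any member in the authors' deposited table for blades. Their counting intervals ran from 0.29 to 0.34 and from 0.48 to 0.58. PIP1-3 was the least abundant listed member in both groups, and PIP1-2 the more abundant of the 2 listed PIP1 genes.

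PIP2 proteins form the efficient water channels of the plasma membrane in most plants studied. PIP2-1 (Os07g0448800) rose, with a mean of 341 TPM in salt and 222 TPM in control blades, or 0.43 on the log2 scale (q = 7.2e-08) in the authors' deposited table. Its mean reads, 6709 in salt and 4557 in control blades, were the only ones among the listed members that were not means of 2 whole numbers, so they were estimated. In the reference order PIP2-5 is its next neighbour on chromosome 7, with PIP2-4 close by. PIP2-4 and PIP2-5 were in neither table, and how reads were divided among the 3 genes is not given in the sources used here.

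PIP2-7 (Os09g0541000) fell, with a mean of 1321 TPM in salt and 1500.2 TPM in control blades. The authors' deposited table lists -0.38 for it on the log2 scale, with q = 1.2e-06. PIP2-2 (Os02g0629200) fell by less, with a mean of 656 TPM in salt and 692 TPM in control blades and a listed log2 value of -0.26 (q = 0.00066) in the authors' deposited table. The 2 fallers were the 2 most abundant of the 3 PIP2 members in both groups, and PIP2-1, the one that rose, was the least abundant.

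The size of the falls depends on the scale. As ratios of mean TPM, the log2 changes were -0.18 for PIP2-7 and -0.08 for PIP2-2, and the largest rise, that of PIP1-3, was 0.72. A TPM ratio lay a median of 0.19 above the listed fold change on the log2 scale over all listed blade genes with reads in both groups, and each of the 7 members also lay 0.19 above it to 2 decimals, so this is a shift common to the table. All 7 members kept their direction as ratios of TPM, FPKM and reads. PIP2-2 was the closest to no change, at 0.949 of its control TPM.

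**Figure D2:**
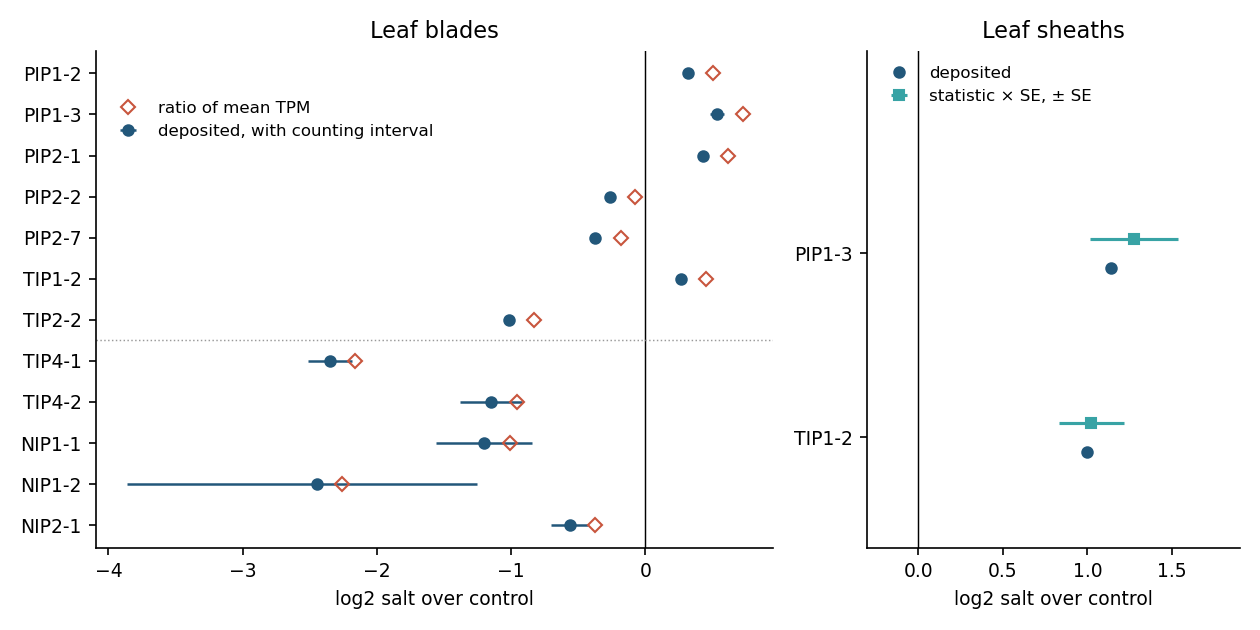
Log2 change, salt over control, of every listed aquaporin. In blades (left) circles are deposited fold changes with 95% counting intervals and diamonds the ratios of mean TPM, with the 7 members above the dotted line and 5 other aquaporins below it. In sheaths (right) circles are deposited fold changes and squares statistic times standard error with 1 standard error each way. All 5 other aquaporins lie left of 0, from -0.56 to -2.44.

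The order of levels shifted within the pool. In salt blades it ran TIP1-2, PIP2-7, PIP1-2, PIP2-2, PIP2-1, TIP2-2 and PIP1-3, and in control blades TIP1-2, PIP2-7, PIP2-2, PIP1-2, TIP2-2, PIP2-1 and PIP1-3. PIP1-2 thus stood at 1.41 times PIP2-2 in salt blades (95% counting interval 1.38 to 1.43), while in control blades PIP2-2 stood at 1.06 times PIP1-2 (1.04 to 1.08). PIP2-1 stood at 1.39 times TIP2-2 in salt blades (1.35 to 1.43), while in control blades TIP2-2 stood at 1.96 times PIP2-1 (1.91 to 2.01). All neighbours in these orders differed by more than counting error. Whether PIP2-2 and PIP1-2 in control blades differ beyond the spread between libraries was not tested, since no value per library is given.

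In shares of the summed TPM of the 7 listed members, a scale factor common to a group cancels. A factor that differs between the libraries of a group would not cancel. TIP1-2 made up 39.9% of this sum in salt and 33.0% in control blades, and TIP2-2 made up 4.0% in salt and 8.07% in control blades. PIP2-7 made up 21.6% in salt and 27.8% in control blades, and PIP1-2 made up 15.1% in salt and 12.1% in control blades. The share of PIP2-2 fell by 2.09 percentage points, while PIP2-1 gained 1.46 and PIP1-3 gained 0.965.

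By membrane class, vacuolar TIP transcript was 43.9% of the sum in salt and 41.1% in control blades, a difference of 2.82 percentage points. As shares of reads these were 42.7% in salt (95% exact counting interval 42.5% to 42.9%) and 39.9% in control blades (39.7% to 40.1%). Both intervals cover counting error only, so they do not show a difference beyond the spread between libraries. Within the classes the shifts were larger. TIP1-2 was 90.9% of the listed TIP transcript in salt and 80.3% in control blades. The listed PIP1 genes were 32.4% of the listed PIP transcript in salt and 24.0% in control blades, a rise of 8.36 percentage points. The 2 classes were described and not tested against each other, because members are not replicates.

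**Figure D3:**
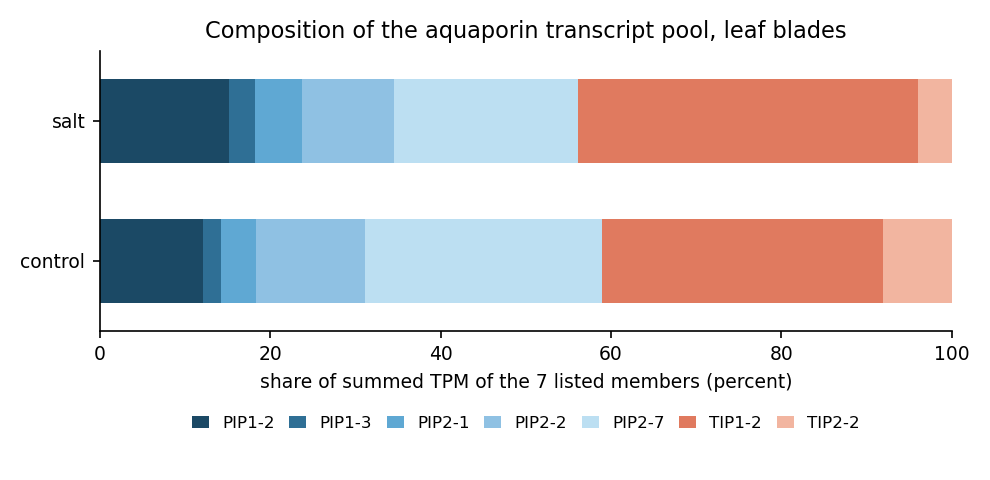
Share of each listed member in the summed TPM of the 7 members, in percent, for salt blades (upper bar) and control blades (lower bar). PIP members are blue and TIP members orange, and the TIP1-2 segment is 39.9% with salt and 33.0% in control.

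The total of the 7 listed members was a mean of 6111 TPM in salt and 5391 TPM in control blades, which is 0.611% of all TPM in salt and 0.539% in control blades. The ratio was 1.13 (95% counting interval 1.13 to 1.14), or 0.18 on the log2 scale. Listed PIP genes summed to 3430 TPM in salt and 3177 TPM in control blades, a ratio of 1.08. Listed TIP genes summed to 2682 TPM in salt and 2214 TPM in control blades, a ratio of 1.21. The 2 listed PIP1 genes summed to 1111 TPM in salt and 764 TPM in control blades, a ratio of 1.45. The 3 listed PIP2 genes summed to 2318 TPM in salt and 2414 TPM in control blades, a ratio of 0.961. Members not listed in blades, PIP1-1 among them, and the 5 further PIP genes have no value and are in none of these sums. The ratios are thus those of the listed genes and not of whole classes.

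The direction of the total was not fixed by these data. Brought to the scale of the deposited fold changes, the log2 ratio was -0.01 for the total, -0.08 for PIP and 0.09 for TIP. On that scale the summed listed PIP1 genes stood at 1.27 and the summed listed PIP2 genes at 0.841 of control. The sums thus moved in opposite directions on this scale and as TPM. These scales differ by a constant log2 shift of 0.19, so they are not separate measures. PIP2-1, within the PIP2 sum, rose. As summed reads the total changed by 0.11 on the log2 scale. With the 20 most abundant listed blade genes, which held 22.7% of all TPM in salt and 28.0% in control blades, left out of the TPM total, the log2 ratio was 0.08. Without TIP1-2 the total changed by 0.02 as summed TPM, and without PIP2-7 by 0.30. No test over samples could be made of any of these sums.

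**Figure D4:**
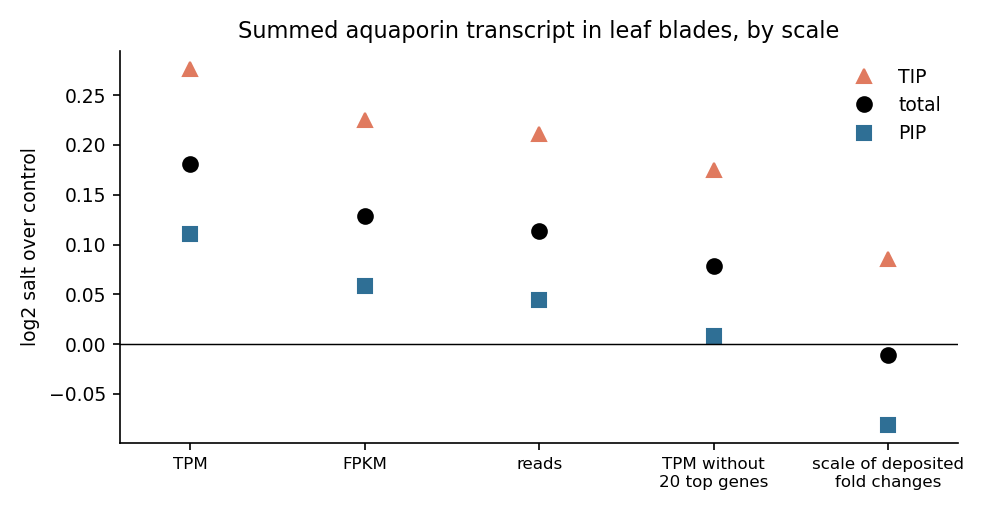
Log2 ratio, salt over control, of summed aquaporin transcript in leaf blades on 5 scales, with triangles for the 2 listed TIP members, circles for all 7 and squares for the 5 PIP members. The total runs from 0.18 as TPM to -0.01 on the scale of the deposited fold changes, and TIP lies above PIP on every scale plotted. The deposited scale and the scale without the most abundant genes move summed TIP and PIP TPM by the same amount. On them the order of TIP and PIP therefore repeats that of TPM by arithmetic. As FPKM (0.22 for TIP, 0.06 for PIP) and as reads (0.21 and 0.04), both also lay below their TPM values by nearly the same amount. The 5 scales are therefore not separate measures of this order.

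Of the 23 other rice aquaporins in a fixed list (further PIP and TIP genes, and the NIP and SIP classes), 5 were listed in blades and all 5 were lower, against 48.3% of all listed blade genes. The median of their log2 values in the authors' deposited table was -1.2, and the median over all listed blade genes was 0.27. TIP4-1 (Os05g0231700) had a mean of 10.3 TPM in salt and 45.9 TPM in control blades, or -2.35 on the log2 scale (q = 1.6e-56) by the authors' deposited table. TIP4-2 (Os01g0232000) is at -1.15 on the log2 scale (q = 1.8e-06) in the authors' deposited table, with a mean of 12.6 TPM in salt and 24.4 TPM in control blades.

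The NIP class holds channels for silicic acid, boric acid and glycerol in addition to or in place of water. NIP2-1 (Os02g0745100), also named Lsi1 and known as the silicon influx channel of rice roots, fell by 0.56 on the log2 scale with q = 0.00091 in the authors' deposited table. NIP1-1 had a mean of 2.38 TPM in salt and 4.78 TPM in control blades, and stands at -1.2 on the log2 scale (q = 0.0022) in the authors' deposited table. NIP1-2 was near the limit of counting, with a mean of 3.5 reads in salt and 17.5 in control blades, and its counting interval on the log2 scale ran from -3.86 to -1.25 around a deposited value of -2.44.

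These 5 genes were low, and together held 42.7 TPM in salt and 98.9 TPM in control blades. With them the total of listed aquaporins was 6154 TPM in salt and 5490.3 TPM in control blades, a log2 ratio of 0.16. Of the 10 TIP genes of both lists together, 4 were listed in blades, TIP1-2 higher and TIP2-2, TIP4-1 and TIP4-2 lower. The 4 summed to 2705 TPM in salt and 2284 TPM in control blades. Of the 10 NIP genes, 3 were listed, all lower in blades, against 48.3% of all listed blade genes. Neither SIP gene was listed. The names TIP4-3, NIP1-3, NIP1-4 and NIP3-2 were not found in RefSeq, so the identifiers by which they were counted as absent are unchecked.

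The members were deeply counted and most of their listed changes were small. Their group means lay between 2384 and 42265 reads, against a median of 479 reads per listed blade gene. The absolute log2 fold change of 6 of the 7 was below the median of all listed blade genes, 0.69, and TIP2-2 was the exception. Over all listed blade genes, the 1419 with an absolute log2 fold change under 0.5 had a median of 1153 reads and the rest a median of 259 reads.

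**Figure D5:**
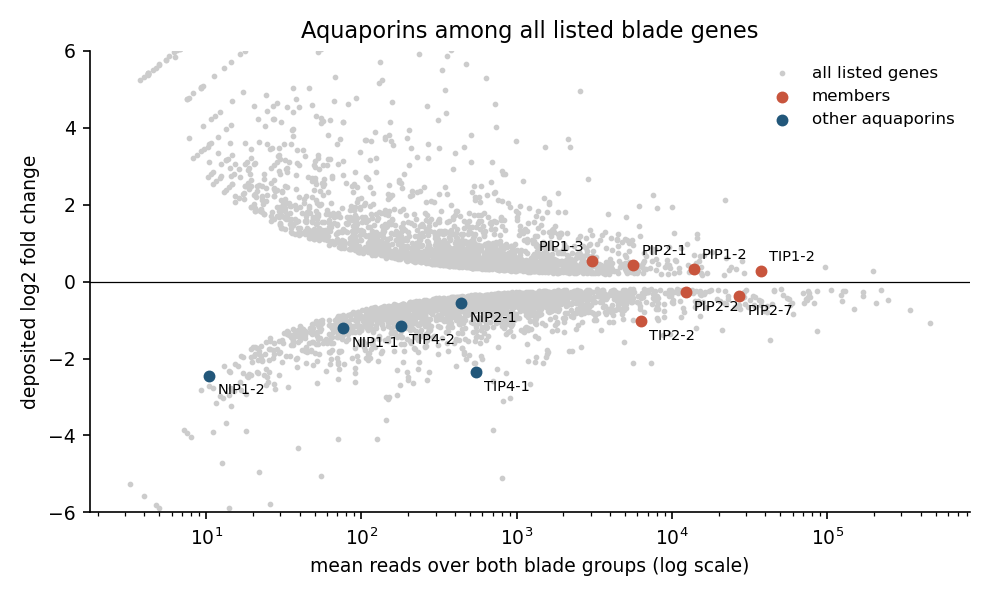
Deposited log2 fold change, salt over control, against mean reads over both blade groups (log axis) for all 4623 listed genes in grey, the 7 members in red and 5 other aquaporins in blue; 54 genes beyond 6 in either direction are off the axis. The members lie at the right, at 2384 to 42265 reads in a group, 6 of the 7 with an absolute change below the median of 0.69 and TIP2-2 at -1.02, and the other aquaporins lie to their left and below 0.

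In leaf sheaths with salt, PIP1-3 and TIP1-2 were both higher. The sheath table gives an expression level of unnamed unit, so levels of the 2 genes are not set against each other or against blades. PIP1-3 had a level of 14.8 in salt and 6.16 in control sheaths. The authors' deposited table lists a log2 value of 1.14 (adjusted p = 3.7e-05), which is a ratio of levels with 1 added. The estimate behind that p, the product of the statistic and its standard error in the authors' deposited table, was 1.28 ± 0.261 (standard error).

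TIP1-2 had a level of 249 in salt and 124 in control sheaths, for which the authors' deposited table lists 1.0 on the log2 scale (adjusted p = 5.4e-06). The product of its statistic and standard error was 1.02 ± 0.192 (standard error). Among all listed sheath genes, 73.3% had a smaller absolute log2 fold change than PIP1-3 and 61.9% a smaller one than TIP1-2. None of the 3 PIP2 members and none of the 23 other aquaporins was listed in sheaths. Only 6.25% of the back-calculated number of sheath genes tested were listed, so these empty counts say nothing particular to aquaporins.

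Side by side, the log2 fold changes in the authors' deposited tables were 1.14 in sheaths and 0.53 in blades for PIP1-3, and 1.0 in sheaths and 0.27 in blades for TIP1-2. Both genes rose in both tissues, as did 468 (58.9%) of the 794 genes in both tables, so the count of 2 says nothing particular to aquaporins. The tables use different fold estimates and the blade table gives no standard error, so the difference between tissues was not tested. The 5 members listed only in blades, among them PIP2-7 and TIP2-2, had no sheath value. All 7 blade members had q of at most 0.00098, below the 0.004 at which the sheath list ends, but a gene outside the sheath list is not shown to be unchanged there.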

How the data were processed

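The authors deposited 1 table per tissue with group means of genes they had called. For blades it holds log2 fold changes, mean TPM, mean read counts, mean FPKM and q-values, per the file headers. The deposited read counts are group means of estimated counts, as some are not means of 2 whole numbers. Case1 was read as salt, since no other blade group is labelled. For sheaths it holds, per the file headers, log2 fold changes, group levels (a signal of unnamed unit), standard errors, a test statistic (a score), p-values and adjusted p-values. The deposited sheath fold change of both members equals the log2 ratio of levels with 1 added to each. HISAT and build mm10 are named in the submitters' processing notes. As mm10 is a mouse build, the rice build is not given in the sources used here, nor are the annotation, counting or test.

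No per-sample values were at hand, so no new test was made, and fold changes, q and adjusted p are the authors'. Ratios, sums, shares and exact 95% counting intervals (SciPy 1.17.1, pandas 2.3.3, numpy 2.4.6, Python 3.11.15, matplotlib 3.10.9) were computed here. The interval of a read ratio was tested on simulated data, before any shift to a fold change or TPM ratio. The members and lists were chosen with earlier results of these data known. All 10 members and every listed gene of the 23 other aquaporins whose name passed the check are named. The files pair no identifiers with names, and the RefSeq table, of another assembly, held 0 of the identifiers. Of 33 names fixed from general knowledge, 29 (all 10 members) were in it on the chromosome the identifier states, and 43 of 43 pairs on a chromosome ran in the same order. No sequences were at hand, and no coordinates are given.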

Additional observations from a re-analysis of the deposited data

How the results depend on the processing

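No paired analysis was possible because the tables give group means only, and for the same reason no library could be left out in turn. Each of the 39 recomputed member values kept its direction, but not all could have reversed. By arithmetic, the 7 blade ratios with 1 added to TPM share the sign of the TPM ratios. The 2 sheath ratios of levels without the added 1 likewise share the sign of the deposited values. For 7 more, reads were scaled by an offset taken from the deposited fold changes. Counts per direction were the same with q or adjusted p up to 0.001, and with direction from mean TPM. With an absolute log2 fold change of at least 0.5, PIP1-3 (1 member higher) and TIP2-2 (1 lower) were left in blades, so 1 PIP was higher, 0 PIP lower and 0 TIP higher. The log2 ratio of the total, 0.18 as TPM, was 0.113 as reads, 0.129 as FPKM, 0.0787 without the 20 most abundant genes and -0.0104 on the deposited scale. It was 0.130 without PIP1-2, 0.167 without PIP1-3, 0.159 without PIP2-1, 0.215 without PIP2-2, 0.300 without PIP2-7, 0.0244 without TIP1-2, 0.243 without TIP2-2 and 0.165 with the other aquaporins. For PIP, at 0.11 as TPM, the same scales gave 0.0447, 0.0583, 0.00802 and -0.0811. Without PIP1-2 it was -0.0121, without PIP1-3 0.0814, without PIP2-1 0.0636, without PIP2-2 0.158 and without PIP2-7 0.330. For TIP, at 0.28 as TPM, the scales gave 0.211, 0.225, 0.174 and 0.0854, and it was -0.830 without TIP1-2 and 0.454 without TIP2-2. The TIP share rose by 2.27 percentage points over all listed PIP and TIP genes. The scales other than reads and FPKM, the removals within a class and this wider share were chosen after seeing the data. The cause of these shifts was not tested, beyond the common offset between TPM ratios and listed fold changes. Depth limits NIP1-2 most. The spread between libraries enters at most the authors' q, p and standard errors. It was not measured for the ratios, sums, shares and counting intervals computed here.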
